A study of Mus musculus with 10 samples.

Results

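The genes described here are 9 intermediate filament genes of glia and neurons: Gfap, Vim, Nes and Synm, which are filament genes of astrocytes and progenitors, and Nefl, Nefm, Nefh, Ina and Prph, which are filament genes of neurons. They were chosen by name, and each was read from the row of the deposited table that names that gene alone. All 9 of 9 were found among 30142 genes, with 1 row per gene. Brain tissue of adult mice of 8 to 12 weeks was compared between the ipsilateral side, at the site of a 2 mm controlled cortical impact, and the corresponding contralateral region, 7 days after the injury. In controlled cortical impact, a driven tip deforms the exposed cortex of 1 hemisphere to a set depth. Each side had 5 samples, called biological replicates in the labels, and each sample was hybridised to 1 Affymetrix whole-transcript array. Precision is limited by that number of arrays. All tissue came from injured mice, since the contralateral side served as the control, and the strain was not given in the sources used here.

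Intermediate filaments are rope-like polymers that give cells mechanical strength. Astrocytes build theirs from glial fibrillary acidic protein and vimentin, and raise both in reactive gliosis. Neurofilaments, which set the calibre of large axons, are built from a light, a medium and a heavy chain together with internexin alpha, and peripherin joins them mainly in peripheral neurons.

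The median log2 signal of an array, over all rows of the table, lay between 4.71 and 4.84, and the ipsilateral medians (4.79 to 4.84) were above the contralateral ones (4.71 to 4.77). In limma, 1305 of 30142 genes were lower and 369 were higher on the ipsilateral side at a Benjamini-Hochberg adjusted p under 0.05. Median centring of the arrays moved that split to 2130 lower and 225 higher. The mean of the 7 measured ependymal and choroid plexus markers stood apart on the arrays numbered 2 and 4 of both sides. It was 8.55 and 7.57 ipsilaterally and 8.88 and 7.00 contralaterally on the log2 scale, against 5.75 to 6.15 on the other 6 arrays. Of these markers, Ttr, Folr1, Kl and Clic6 were each higher on the arrays numbered 2 and 4 than on the other 6. Tmem212, Ccdc153 and Rarres2 did not share this pattern. The labels name both sexes, whereas Xist lay between 4.53 and 4.67 on all 10 arrays, below every array median, while Eif2s3y, Kdm5d and Uty, which are on the Y chromosome, lay between 7.75 and 8.88.

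The 3 neurofilament chains and internexin alpha were lower at the impact site, and Gfap and Vim were higher on average but did not pass the test. Of the 9 filament genes, 4 fell (Nefl, Nefm, Nefh and Ina), where 4.33% of all genes tested fell and 5.55% passed in either direction. None of the 9 passed the limma test upward, where 1.22% of all genes did, although Gfap and Vim had an unadjusted p under 0.05 (0.00671 and 0.00873). The same 4 neuronal genes had every ipsilateral array below every contralateral array, which held for 5.21% of all genes. None of the 9 had every ipsilateral array above every contralateral array, which held for 2.04% of all genes. The median log2 fold change of the 9 genes was -0.12, beside 0.02 over all genes.

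**Figure D1:**
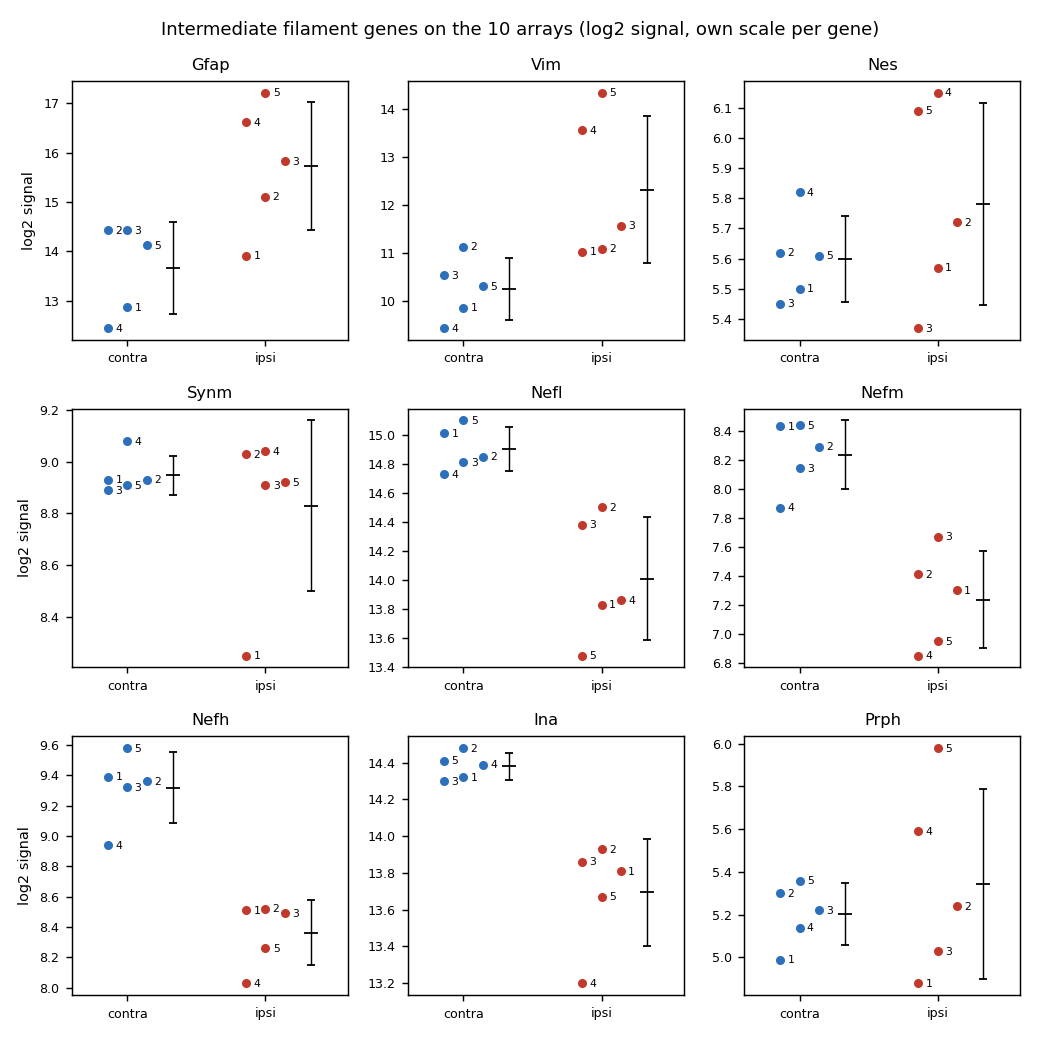
Log2 signal of the 9 filament genes, with each gene on its own vertical scale, on the 5 contralateral (blue) and 5 ipsilateral (red) arrays. Small numbers are the replicate numbers, and black bars are the mean ± SD per side. The sides do not overlap for Nefl, Nefm, Nefh and Ina and overlap for the other 5 genes.

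Nefl encodes the neurofilament light chain, the core subunit of the polymer. Its log2 signals on ipsilateral replicates 1 to 5 were 13.83, 14.50, 14.38, 13.86 and 13.48, and those on contralateral replicates 1 to 5 were 15.01, 14.85, 14.81, 14.73 and 15.10. The lowest contralateral array was 0.23 above the highest ipsilateral one. Nefl fell by 0.89 ± 0.18 (SE) on the log2 scale, from 14.90 ± 0.15 to 14.01 ± 0.42 (mean ± SD, n = 5 per side), a level 1.85-fold lower (limma, adjusted p = 0.0166). Among the fits with arrays left out, this call ended without contralateral replicate 1 (adjusted p = 0.0521) and without the arrays numbered 2 and 4 (adjusted p = 0.0814 in limma).

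Nefm encodes the medium chain, whose long tail projects from the filament. The ipsilateral log2 signals of replicates 1 to 5 were 7.30, 7.41, 7.67, 6.85 and 6.95, and the contralateral ones were 8.43, 8.29, 8.14, 7.87 and 8.44. Ipsilateral replicates 4 and 5 were the lowest of the 10 arrays. Nefm fell by 1.00 ± 0.16 (SE) on the log2 scale, or 2.00-fold (limma, adjusted p = 0.00663). Without the arrays numbered 2 and 4 the adjusted p was 0.0640.

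Nefh encodes the heavy chain, the most heavily phosphorylated subunit of mature large axons. Its ipsilateral log2 signals were 8.51, 8.52, 8.49, 8.03 and 8.26 for replicates 1 to 5, and its contralateral ones 9.39, 9.36, 9.32, 8.94 and 9.58. The gap between the sides was 0.42, the widest among the 9 genes. Nefh fell by 0.96 ± 0.13 (SE), or 1.94-fold, with a limma adjusted p of 0.00267, and stood at rank 188 of 30142 genes when these were ordered by moderated statistic from the strongest fall. It passed in every alternative that was run (adjusted p between 0.000996 and 0.0169).

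Ina encodes internexin alpha, which is made early in neuronal development and remains in the neurofilaments of the adult brain. The ipsilateral log2 signals of replicates 1 to 5 were 13.81, 13.93, 13.86, 13.20 and 13.67, and the contralateral ones 14.32, 14.48, 14.30, 14.39 and 14.41. Contralateral arrays lay within a narrow range, with an SD of 0.07, while the ipsilateral SD was 0.29. Ina fell by 0.69 ± 0.12 (SE), or 1.61-fold (limma, adjusted p = 0.0101).

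Prph encodes peripherin, a filament of peripheral and some central neurons that is known to rise in injured axons. Its ipsilateral log2 signals were 4.88, 5.24, 5.03, 5.59 and 5.98 for replicates 1 to 5, against 4.99, 5.30, 5.22, 5.14 and 5.36 contralaterally. All of these were above the median signal of their array, but ipsilateral replicate 1 (4.88) only slightly, as the ipsilateral medians were 4.79 to 4.84. Prph was thus dim, and a small change could be hard to see. Ipsilateral replicates 4 and 5 were the highest and ipsilateral replicate 1 the lowest of all 10 arrays. The log2 fold change was 0.14 (95% interval -0.27 to 0.55, limma adjusted p = 0.722).

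Unequal falls among the neurofilament subunits were not detected. Within an array, the difference between the log2 signals of a pair of genes does not depend on any offset between arrays, and 6 such pair differences were compared between sides by an exact two-sided permutation test over the 252 splits of 10 arrays into 5 and 5. Nefh minus Nefl differed between sides by -0.07, with a 95% interval from inverting that test of -0.43 to 0.37 (exact p = 0.690, adjusted 0.829). For Nefm minus Nefl the difference was -0.11 (interval -0.43 to 0.18, exact p = 0.413, adjusted 0.619). Ina minus Nefl differed by 0.20 (interval -0.20 to 0.68, exact p = 0.341, adjusted 0.619). Unequal changes within these intervals were not excluded with 5 arrays per side.

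**Figure D2:**
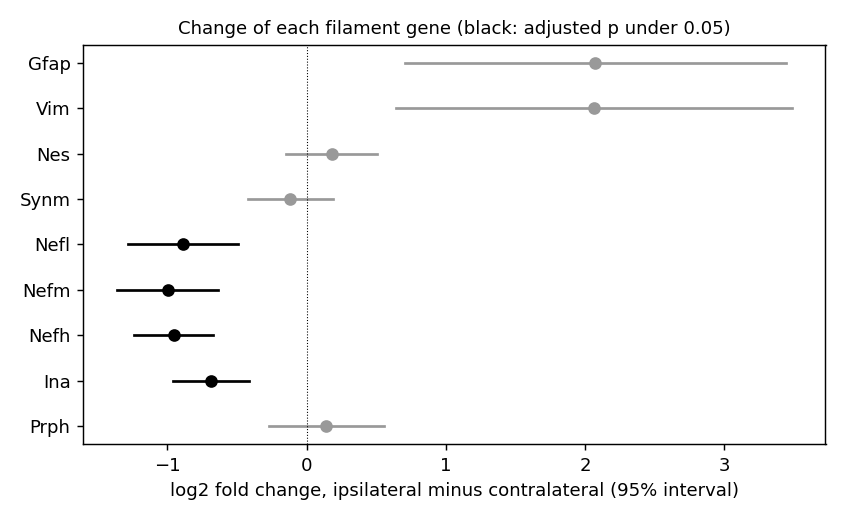
Log2 fold change, ipsilateral minus contralateral, of the 9 filament genes with the 95% interval of the limma fit (n = 5 per side). Nefl, Nefm, Nefh and Ina (black, adjusted p under 0.05) lie below 0 with their whole intervals, and Gfap and Vim lie at 2.07 and 2.06 with wide intervals that exclude 0 but did not pass after adjustment over all genes.

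Among the glial genes, Gfap and Vim had the larger values. Gfap encodes glial fibrillary acidic protein, the defining astrocyte filament. Its log2 signals on ipsilateral replicates 1 to 5 were 13.91, 15.11, 15.82, 16.62 and 17.21, and those on contralateral replicates 1 to 5 were 12.87, 14.43, 14.43, 12.45 and 14.12. Of the ipsilateral arrays, 4 were above the highest contralateral one and ipsilateral replicate 1 was inside the contralateral range. The log2 fold change of 2.07 ± 0.62 (SE), or 4.21-fold, was the 12th largest positive one of 30142 genes, with a 95% interval of 0.71 to 3.44 and an adjusted p of 0.0814 in limma. Without ipsilateral replicate 1 it was 2.53 and passed the limma test (adjusted p = 0.0201).

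Vim encodes vimentin, a filament of immature and reactive astrocytes and also of endothelial cells, fibroblasts and microglia. The ipsilateral log2 signals of replicates 1 to 5 were 11.02, 11.08, 11.56, 13.55 and 14.33, and the contralateral ones were 9.85, 11.12, 10.53, 9.43 and 10.30. Ipsilateral replicates 4 and 5 were far above the other 8 arrays, and ipsilateral replicates 1 and 2 were below contralateral replicate 2. The log2 fold change was 2.06 ± 0.64 (SE), or 4.18-fold (95% interval 0.64 to 3.48, limma adjusted p = 0.0937). The spread was wider at the impact site, with an SD of 1.53 against 0.65.

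Nes encodes nestin, a filament of neural progenitors and reactive astrocytes. Its log2 signals were 5.57, 5.72, 5.37, 6.15 and 6.09 on ipsilateral replicates 1 to 5 and 5.50, 5.62, 5.45, 5.82 and 5.61 on the contralateral ones. The same ipsilateral replicates 4 and 5 were highest, and the log2 fold change was 0.18 (95% interval -0.15 to 0.51, limma adjusted p = 0.531). Synm encodes synemin, which joins vimentin and Gfap filaments to other structures. It read 8.25, 9.03, 8.91, 9.04 and 8.92 ipsilaterally and 8.93, 8.93, 8.89, 9.08 and 8.91 contralaterally for replicates 1 to 5. Apart from ipsilateral replicate 1, all arrays lay within the contralateral range, and the log2 fold change was -0.12 (95% interval -0.42 to 0.19, limma adjusted p = 0.683).

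Among the glial filament genes, Gfap minus Synm was the only pair to pass the test, and it passed in 5 of 14 alternatives. Gfap minus Synm was 6.90 ± 1.07 ipsilaterally and 4.71 ± 0.99 contralaterally (mean log2 difference ± SD, n = 5 per side), a difference of 2.19 (95% interval 0.52 to 3.64, exact permutation p = 0.00794, which is the lowest p this test can reach, or 0.0476 once adjusted over 6 pairs). The log2 fold changes of Gfap and Synm were 2.07 and -0.12, so this difference mostly restates that of Gfap, which did not pass over all genes. Every ipsilateral array was above every contralateral one for this pair, although ipsilateral replicate 1 (5.66) exceeded the highest contralateral array (5.54) by little. That replicate also had the lowest Synm signal of all arrays (8.25), which raised its Gfap minus Synm value. Without it the difference was 2.50 (adjusted exact p = 0.0238). The adjusted p rose to 0.0952 with quantile scaling, and likewise without ipsilateral replicate 5 or any contralateral replicate. Gfap minus Nes differed by 1.89 (interval 0.21 to 3.75, exact p = 0.0397, adjusted 0.119), and by 2.30 without ipsilateral replicate 1 (adjusted exact p = 0.0238). Gfap minus Vim differed by 0.01, with an interval of -0.88 to 0.98 (exact p = 0.968, adjusted 0.968).

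Promoter sequence is shown for both glial genes with the larger values and for Ina, a fallen neuronal gene. The RefSeq promoter table of GRCm38.p6 matched 6 of the 9 genes by symbol (Gfap, Vim, Nes, Synm, Ina and Prph). The 250 bases before the annotated start are printed 5′ to 3′ along the gene, with capitals for matches on either strand to 5 motifs. These were TATAAA as the core promoter element, CCAAT as the upstream element of that name, GGGCGG as the GC box, TTCNNNGAA as the STAT motif and TGANTCA as the AP-1 motif. No matches overlap one another in these windows.
Gfap, chr11:102897201-102897450, minus strand: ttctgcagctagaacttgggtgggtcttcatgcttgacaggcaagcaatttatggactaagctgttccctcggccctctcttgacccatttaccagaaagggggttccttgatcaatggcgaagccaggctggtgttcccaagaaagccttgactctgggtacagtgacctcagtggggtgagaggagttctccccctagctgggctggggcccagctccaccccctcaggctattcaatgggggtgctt
Vim, chr2:13574061-13574310, plus strand: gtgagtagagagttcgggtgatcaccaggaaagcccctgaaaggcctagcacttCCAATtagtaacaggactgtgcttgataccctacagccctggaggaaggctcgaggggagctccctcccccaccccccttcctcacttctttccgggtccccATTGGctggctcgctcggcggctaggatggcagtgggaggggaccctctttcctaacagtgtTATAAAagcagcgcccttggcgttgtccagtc
Ina, chr19:47014431-47014680, plus strand: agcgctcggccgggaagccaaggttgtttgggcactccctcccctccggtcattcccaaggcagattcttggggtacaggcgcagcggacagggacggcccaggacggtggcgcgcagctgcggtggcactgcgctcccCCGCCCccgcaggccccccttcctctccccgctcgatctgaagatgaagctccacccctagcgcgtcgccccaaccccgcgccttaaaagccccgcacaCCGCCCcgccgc
The Vim window held a TATA box whose first base was 32 bases before the start, and 2 CCAAT matches, at 196 and, on the opposite strand, at 94 bases before it. The Ina window held 2 GC boxes on the opposite strand, at 111 and 12 bases before the start. The Gfap window held none of the 5 motifs, which says only that these letters are not in it. Over all 32851 promoter windows of this length, 12.4% held the TATA box, 33.9% the CCAAT box, 32.7% the GC box, 7.02% the STAT motif and 6.75% the AP-1 motif.

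Relative to pan-neuronal markers, the neurofilament genes were lower at the impact site. In bulk tissue, fewer cells of a type and less RNA per cell cannot be told apart. Of 10 pan-neuronal markers 1 fell, the neuronal nuclear protein gene Rbfox3 (log2 fold change -0.54 ± 0.10), and none rose, with a median of -0.11. At an unadjusted p under 0.05 in limma, 3 were lower (Rbfox3, Syt1 and Elavl4) and 1 was higher (Gap43). Of the 10, 7 had negative fold changes. The count of falls that passed after adjustment was 0 without the arrays numbered 2 and 4 and 2 without contralateral replicate 2. The mean log2 signal of these 10 markers ran from 12.98 to 13.32 on ipsilateral arrays and from 12.95 to 13.32 on contralateral arrays. Set against that mean on the same array, Nefl differed between sides by -0.83 (95% interval -1.23 to -0.43), Nefm by -0.94 (-1.36 to -0.51), Nefh by -0.90 (-1.23 to -0.49) and Ina by -0.63 (-0.95 to -0.36). For each of the 4 genes the sides stayed apart on this scale (exact permutation p = 0.00794, adjusted 0.0198 over 10 such comparisons). The marker mean hardly differed between sides (13.10 ipsilaterally and 13.16 contralaterally), and these genes were already known not to overlap. The comparison was also added after the data were seen, so its p largely restates the falls given above.

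Relative to markers of neocortical neurons, none of the same 4 genes differed between sides by a margin that passed the test. Of 11 measured neocortical markers 7 fell, and the median log2 fold change was -0.79. Only 3 fell without the arrays numbered 2 and 4. The leading falls were Lamp5, which marks a class of cortical interneurons and upper-layer cells (-2.24), the synaptic calmodulin-binding gene Nrgn (-1.39) and the layer 4 transcription factor Rorb (-1.25), with limma adjusted p from 0.00179 to 0.00291. The mean log2 signal of the list was 10.41 to 10.60 ipsilaterally and 11.22 to 11.59 contralaterally. Relative to that mean, the difference between sides was 0.05 for Nefl (95% interval -0.32 to 0.48), -0.05 for Nefm (-0.39 to 0.24), -0.01 for Nefh (-0.22 to 0.20) and 0.26 for Ina (-0.06 to 0.52). The exact permutation p was 0.762, 0.690, 0.889 and 0.0794, or 0.847, 0.847, 0.889 and 0.113 after adjustment. Without ipsilateral replicate 4 the difference of Ina was 0.36 (adjusted exact p = 0.0317). Several of these markers, Lamp5, Nrgn and Tbr1 among them, were known from earlier results to be lower ipsilaterally, so their mean is no independent yardstick. The part of tissue position in the neurofilament falls was not tested.

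**Figure D3:**
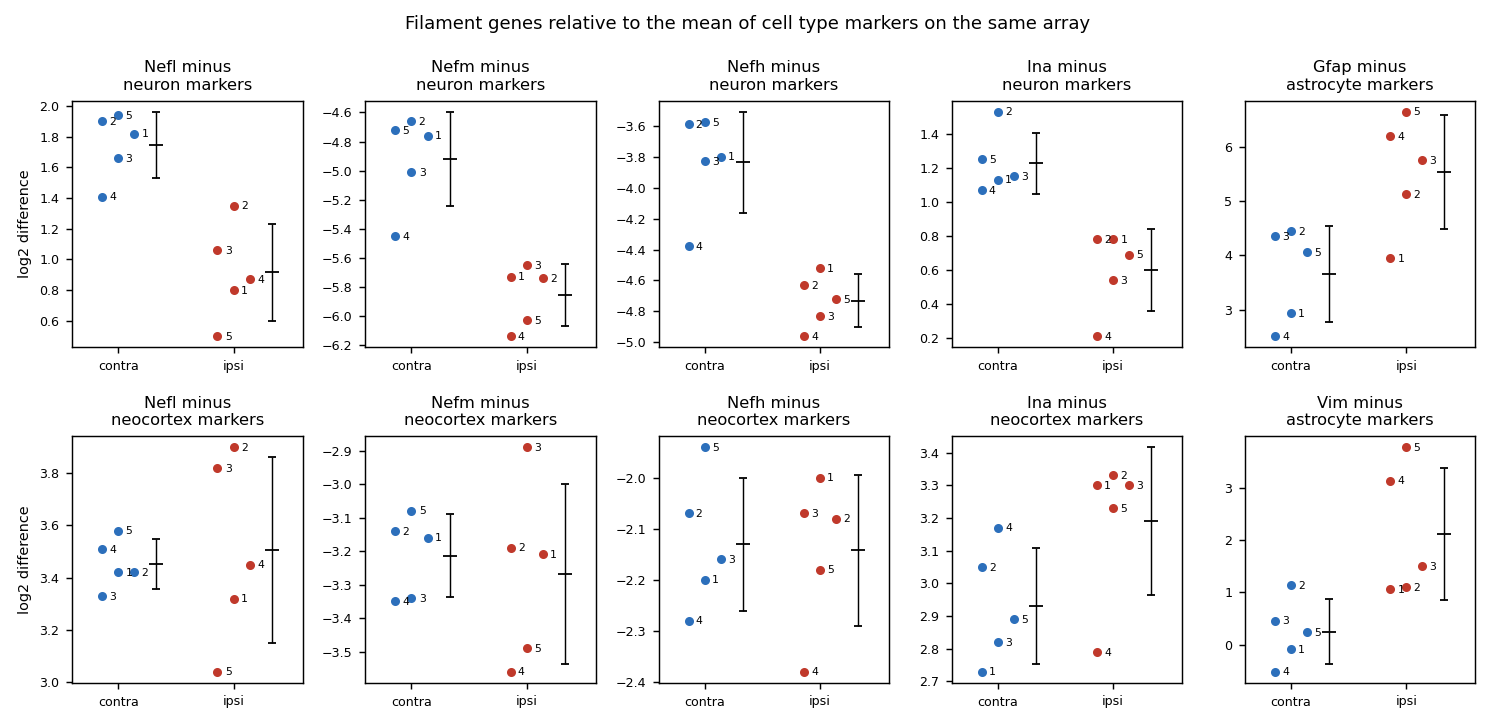
Log2 signal of a filament gene minus the mean log2 signal of a marker list on the same array, for 5 contralateral (blue) and 5 ipsilateral (red) arrays, with replicate numbers and mean ± SD. Relative to pan-neuronal markers (upper row) the 4 neurofilament genes are lower on every ipsilateral array, and relative to neocortical markers (lower row) the sides overlap. The right column shows Gfap and Vim relative to astrocyte markers.

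Calls among large-axon markers were mostly falls, and calls among striatal and ventral forebrain markers mostly rises. Of 9 measured markers of large-axon and layer 5 neurons, 5 fell and 1 rose, with a median of -0.79. The largest falls were the calcium buffer Pvalb (-1.84), the sodium channel subunit Scn4b (-1.76) and the vesicle calcium sensor Syt2 (-1.49). Bcl11b, a transcription factor of layer 5 and of striatal neurons, rose by 0.86 (limma adjusted p = 0.0106). Not called were Fezf2 (-0.79), Esrrg (-0.45) and Bcl6 (0.12), with limma adjusted p of 0.122, 0.0641 and 0.689. Which cells carried the falls in this list was not tested. The list mean was 8.24 to 8.49 ipsilaterally and 8.68 to 9.30 contralaterally. Of 10 measured striatal and ventral forebrain markers, 2 rose and 1 fell: Nnat (2.57) and Hap1 (1.91) rose, the latter not without contralateral replicate 1 (limma adjusted p = 0.0509), and the transcription factor Foxp1 fell by 0.72, and the list mean was 7.79 to 8.74 against 7.09 to 7.71. None of these 10 rose without the arrays numbered 2 and 4. None of the 7 measured oligodendrocyte markers passed in limma (4 had an unadjusted p under 0.05 downward), with the myelin gene Mog at -1.32 (adjusted p = 0.0537, and 0.0304 and 0.0185 without ipsilateral or contralateral replicate 4) and a median of -0.64. Their list means overlapped, at 9.21 to 10.21 against 9.63 to 10.69.

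Among genes that carry and phosphorylate neurofilaments, calls were all falls. Of 12 measured genes of this list 7 fell and none rose (0 had an unadjusted p under 0.05 upward in limma, and 10 had one downward), all 12 had negative fold changes and the median was -0.44. The named falls were Cdk5r2, an activator of the neurofilament kinase Cdk5 (log2 fold change -0.66 ± 0.11), the dynein heavy chain Dync1h1 (-0.63 ± 0.09) and Kif5a, the kinesin that carries neurofilaments along axons (-0.59 ± 0.12). Their limma adjusted p was 0.00569, 0.00283 and 0.0164, and for Kif5a 0.0512 without contralateral replicate 3. The count of falls in this list was 2 without the arrays numbered 2 and 4. Of 10 measured cytolinkers, chaperones and modifiers of filaments, 2 fell and none rose (0 at an unadjusted p under 0.05 upward in limma). These were the cytolinkers plectin, Plec (8.63 ± 0.13 against 9.24 ± 0.08, log2 fold change -0.62, adjusted p = 0.00152), and dystonin, Dst (-0.50, adjusted p = 0.00496 in limma), while the median of the list was 0.11. Of the 10, 1 fell without the arrays numbered 2 and 4.

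The remaining neuronal cytoskeleton changed in both directions. Of 18 measured microtubule and spectrin genes 3 fell and 2 rose, with a median of -0.13, and without the arrays numbered 2 and 4 1 fell and 1 rose. The microtubule-associated Map1a (-0.48), the tubulin-binding Stmn1 (-0.48) and the axon initial segment organiser Ank3 (-0.54) fell, with the limma call of Stmn1 ending without contralateral replicate 1, 3 or 5 (adjusted p up to 0.0561). The tubulin genes Tubb2a and Tubb2b rose by 0.70 and 0.67 (limma adjusted p = 0.0111 and 0.0187, the latter above 0.05 without contralateral replicate 1 or 3). These are near-identical paralogs, and signal shared between their probes was not tested. None of 17 lamins, keratins and other filament genes passed in limma in either direction (3 had an unadjusted p under 0.05, all downward), with Iffo2 leading at -0.20 (adjusted p = 0.111) and a median of 0.01.

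Genes known to regulate Gfap, Vim or Nes gave 1 rise and 1 fall, where 1.22% of all genes rose and 4.33% fell. At an unadjusted p under 0.05 in limma, 6 of these genes were higher and 3 lower. Of 16 measured, the progenitor transcription factor Sox2 rose by 0.47 (limma adjusted p = 0.0479) and Pou3f2, a neural factor known for its binding to the nestin enhancer, fell by 1.44 (adjusted p = 0.00982), with a median of 0.16. Neither direction had a call without the arrays numbered 2 and 4. The call of Sox2 held in 1 of the 10 fits that left out a single array, that without ipsilateral replicate 2 (adjusted p up to 0.110 in the others). For the cytokine receptor gene Osmr the log2 fold change was 1.30 (adjusted p = 0.0843, and 0.0325 without ipsilateral replicate 1). For Stat3, the transcription factor downstream of that receptor, it was 0.38 (adjusted p = 0.0884, and 0.0287 without ipsilateral replicate 2). Both were named after their values were seen.

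Calls among markers of astrocytes and of other cells that make vimentin were all rises, where 1.22% of all genes rose and 4.33% fell. Of 10 astrocyte markers the water channel gene Aqp4 rose (0.95 ± 0.18, limma adjusted p = 0.0117) and none fell, with a median of 0.10 (4 had an unadjusted p under 0.05 upward in limma and 1 downward). Without the arrays numbered 2 and 4 none rose, and without ipsilateral replicate 1, 2 did. The list mean was 9.96 to 10.55 ipsilaterally, highest on ipsilateral replicates 4 (10.42) and 5 (10.55), and 9.93 to 10.07 contralaterally. Relative to that mean Gfap was higher by 1.88 (95% interval 0.34 to 3.26, exact permutation p = 0.0317, adjusted 0.0529), and by 2.28 without ipsilateral replicate 1 (adjusted 0.0265). Vim was higher by 1.87 relative to the same mean (interval 0.48 to 3.53, exact permutation p = 0.0238, adjusted 0.0476), and this ended without any of ipsilateral replicates 4 and 5 and contralateral replicates 1, 3, 4 and 5 (adjusted p from 0.0529 to 0.0926).

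None of 9 measured microglia markers passed in limma (7 had an unadjusted p under 0.05, all upward), all 9 had positive fold changes with a median of 0.77, and C1qb, a complement subunit, led at 1.83 (adjusted p = 0.0580, and 0.0178 without ipsilateral replicate 1, where 4 of the 9 rose). Their mean was 8.35 to 9.89 ipsilaterally, with replicates 4 (9.89) and 5 (9.69) highest, and 7.97 to 8.61 contralaterally. Of 7 measured fibroblast markers the proteoglycan Dcn rose by 2.88 and the collagen chain Col1a1 by 0.80 (limma adjusted p = 0.0250 and 0.0398), and the list mean was 7.33 to 8.66 against 6.51 to 7.16. All 7 had positive fold changes, and 6 had an unadjusted p under 0.05 in limma, all upward. Dcn did not pass without ipsilateral replicate 2, 4 or 5 or contralateral replicate 1, 3 or 5, nor Col1a1 without ipsilateral replicate 3 or 4 or any contralateral replicate (adjusted p up to 0.0672 and 0.0963), and none of the 7 rose without the arrays numbered 2 and 4. None of 10 endothelial and pericyte markers passed in limma (3 upward and 1 downward at an unadjusted p under 0.05), with Vtn at 0.73 (adjusted p = 0.0514, and 0.0354 and 0.0399 without ipsilateral replicates 1 and 2) and a mean of 8.33 to 8.99 against 8.21 to 8.67. Of 7 measured progenitor and cycling markers Cd24a (1.27) and Sox11 (0.89) rose, and the mean was 7.55 to 8.81 ipsilaterally, highest on replicate 1, and 7.35 to 7.48 contralaterally. On ipsilateral replicate 1 Dcx read 11.20 and Dlx2 9.25, against 7.62 to 8.35 and 5.89 to 6.20 on the other ipsilateral arrays. This is the replicate without which Gfap passed the limma test, and the part of its tissue content in that was not tested. None of the 7 ependymal and choroid plexus markers passed in limma (0 at an unadjusted p under 0.05), with Tmem212 at 0.27 (adjusted p = 0.370). In none of these cell type lists was a measured marker below every array median on all 10 arrays, although Folr1 and the ventral forebrain marker Isl1 were so on most arrays. The part of any of these cell types in the Gfap and Vim values was not tested.

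**Figure D4:**
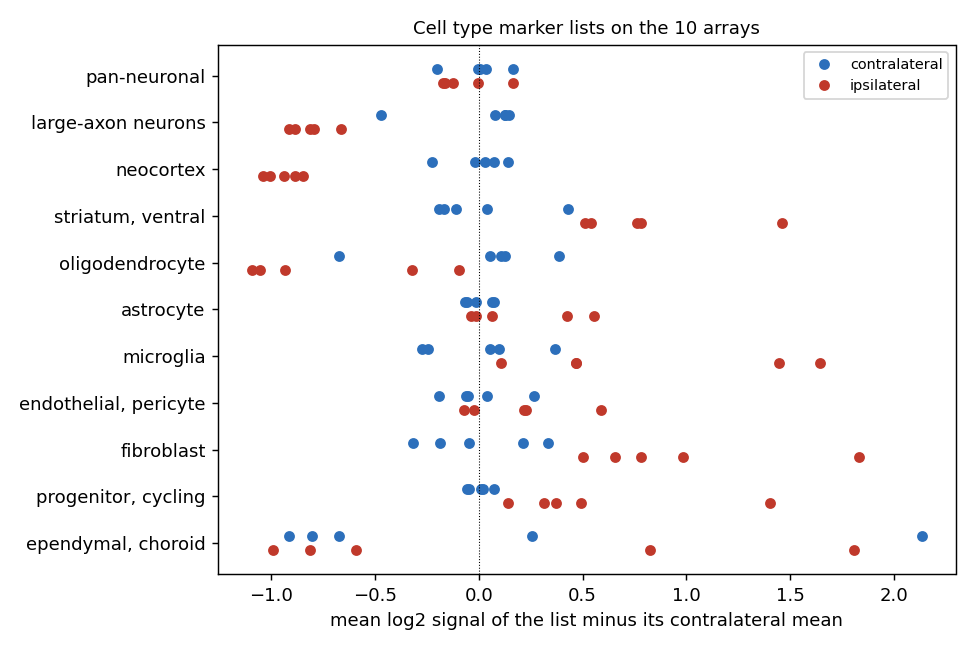
Mean log2 signal of each cell type marker list minus its contralateral mean, with 1 point per array (blue contralateral, red ipsilateral). Large-axon and neocortical lists lie lower on every ipsilateral array, the striatal and ventral forebrain, fibroblast and progenitor lists lie higher, and the pan-neuronal, astrocyte, microglia and other lists overlap between sides.

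The genes whose array-to-array pattern was most like that of a filament gene were found by Pearson r over the 10 arrays, after each side's mean had been removed, among 11758 genes with a mean above that of the median gene, after the 9 filament genes and provisional symbols (Gm numbers, LOC and Rik names) had been left out. They are given as a description, with no p, since the arrays share side, dissection and processing. For Gfap they were the complement gene C4b (r = 0.980), the lysosomal mannosidase Manba (0.975) and the small GTPase Rhob (0.964). For Vim they were the adhesion gene Ctnna1 (0.994), Abhd4 (0.990) and Gpam (0.988), and for Nes they were Tifa (0.972), Dap (0.962) and Rai14 (0.952). For Nefl they were Matk (0.940), the potassium channel subunit Kcnip2 (0.937) and Gdap1 (0.932). For Nefm they were Ube2q2 (0.978), Snord64 (0.948) and Osbp2 (0.941), and for Nefh they were Sod2 (0.939), the sodium channel gene Scn1a (0.938) and Clk3 (0.937). Measured in the same way, Gfap and Vim gave 0.883, Nefm and Nefh 0.876, Nefl and Nefm 0.777, and Nes and Nefm -0.860. The dim Prph gave 0.898 with Vim, 0.820 with Gfap, 0.777 with Nes and 0.504 with Synm. With Nefl, Nefm, Nefh and Ina it gave -0.531, -0.576, -0.368 and -0.430.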

How the data were processed

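The authors deposited log2 signals for each of the 10 arrays. The submitters' processing notes name Transcriptome Analysis Console 4.0. The log2 scale was inferred from the values (1.97 to 19.93). How background, scaling and summarization were handled, and the genome build, are not given in the sources used here. Of 65956 rows, 30604 named 1 symbol in the array annotation and 2146 several, which were left out. The brightest row per gene by mean over the 10 arrays was kept, giving 30142 genes.

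Sides were compared in limma 3.58.1 (R 4.3.3, lmFit and eBayes, no covariates) with Benjamini-Hochberg adjustment over all genes, two-sided, at 0.05. Single per-array differences were tested by exact permutation. Both steps were tested on simulated data. Genes named outside the 9 were, per list, the called ones if 5 or fewer, otherwise the 3 largest, or the smallest p where none was called. Members and lists were chosen with earlier results of these data known, and the comparison with marker means was added after seeing the data. No scan date or batch was given. The labels do not tie equal replicate numbers to 1 animal. Alternatives were replicate blocks, 3 scalings, 2 filters on dim genes, the mean of rows, every row, variance settings, array weights, a threshold of 0.01, and arrays left out.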

Additional observations from a re-analysis of the deposited data

Results flagged for a closer look

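Of 50 groups of 5 arrays examined, 3 held an array far from the others (gap over range above the 95% critical value of 0.71), where chance gives about 1 in 20. Synm on ipsilateral replicate 1 (8.25) was lower than the other ipsilateral arrays, and on contralateral replicate 4 (9.08) higher than the other contralateral ones. Ina minus the mean of neocortical markers was lower on ipsilateral replicate 4 (2.79) than on the other ipsilateral arrays.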

How the results depend on the processing

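Nefl, Nefm, Nefh and Ina kept negative fold changes under every alternative that was run. In limma, Nefl lost its call under the replicate number as a fixed block (adjusted p = 0.0629), without contralateral replicate 1 and without the arrays numbered 2 and 4, and Nefm without the arrays numbered 2 and 4. Nefl and Ina did not pass a threshold of 0.01. Vim passed under none of its alternatives (adjusted p 0.0535 to 0.283), and Gfap passed only without ipsilateral replicate 1. The count of fallen filament genes was 3 to 4 with 1 array left out, 3 with the replicate block, and 2 at a threshold of 0.01 and also without the arrays numbered 2 and 4. The count of risen ones was 0 to 1 with 1 array left out. Whether equal replicate numbers mark 1 animal is not known. Deviations of equal-numbered arrays correlated at -0.40 to 0.26, not above 0.1 in every pair, and 1 of 5 ipsilateral arrays correlated best with its own number, so the replicate block is an alternative only. These correlations cannot exclude pairing. The high Ttr, Folr1, Kl and Clic6 signals shared by the arrays numbered 2 and 4 of both sides were not weighed. With the block, 4 transport genes fell and no large-axon marker rose (Bcl11b lost its call). The block left 177 genes higher and 769 lower over all genes. Median centring gave 225 and 2130, array weights 656 higher, the threshold of 0.01 gave 47 and 537, and the arrays numbered 2 and 4 left out gave 77 and 289. With 1 array left out the counts were 111 to 760 higher and 740 to 1607 lower. Over the 16 other lists, 11 genes were higher and 27 lower. The higher count was 17 without the dimmer genes (lowest 50%), 3 at 0.01, and 6 to 18 with 1 array left out. Without the arrays numbered 2 and 4 these lists held 4 higher and 12 lower. Over all alternatives the neocortical list held 3 to 8 falls, the transport list 2 to 9 and the large-axon list 3 to 6. Rises were 0 to 3 for fibroblasts, 0 to 3 for astrocytes, 0 to 4 for microglia and 0 to 2 for the filament regulators. Gfap minus Synm was 2.15 with quantile scaling, 2.19 with the replicate block (adjusted p = 0.188, where 5 pairs cannot reach 0.05), 2.06 without the arrays numbered 2 and 4, and 1.85 to 2.50 with 1 array left out. With 1 array left out, Gfap minus Nes was 1.54 to 2.30, Gfap minus Vim -0.20 to 0.15, Nefh minus Nefl -0.17 to 0.017, Synm -0.17 to 0.027 and Prph -0.017 to 0.26. Without the arrays numbered 2 and 4, Gfap minus Vim was -0.24, Nefh minus Nefl 0.067 and Nefm minus Nefl 0.047. Relative to neocortical markers with 1 array left out, Nefl was -0.045 to 0.17, Nefm -0.15 to 0.020 and Nefh -0.049 to 0.048, and without the arrays numbered 2 and 4 Nefl was -0.049 and Nefh 0.018. For these changes the cause was not tested. Fits without the arrays numbered 2 and 4 had 3 arrays per side, where the exact test cannot go below 0.10.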
